A study of Mus musculus with 4 samples.

Results

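The genes described here are 39 axon guidance ligands and receptors, and the data are the open-chromatin sites mapped at them in mouse brain macrophages. The members were taken by name: 14 semaphorins, 9 plexins and neuropilins, 5 Slit and Robo genes, 5 netrin-branch genes and 6 ephrin-branch genes. A merged ATAC-seq peak was assigned to a member when its centre lay inside the gene, or when the gene was the nearest protein-coding gene up to 100000 bp away. By this rule 287 of the 74695 merged peaks belonged to the members, at 29 of the 39 genes. The peaks came from 4 libraries of sorted brain parenchymal macrophages, 2 labelled MDM and 2 labelled YSM. All 4 carried the genotype label Ms4a3-Ai9 and the treatment label DR-3x, so what MDM and YSM libraries share cannot be separated from either label. The series title speaks of monocyte-derived macrophages, which is how MDM is taken here, while YSM and DR-3x are spelled out nowhere in the labels. They give no strain, sex or age of the mice, no gate for either group, and do not state if the 2 libraries of a group are of different animals or pools. The gene Ms4a3 is active in the progenitors of monocytes and granulocytes, and the Ai9 allele is a fluorescent reporter switched on by Cre.

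Axon guidance cues are extracellular proteins that steer growing axons, and the same cues act on migrating immune and vascular cells. Semaphorins bind plexins, with neuropilins as co-receptors for most secreted semaphorins. Slits bind Robo receptors, netrin binds Dcc, neogenin and Unc5 receptors, and membrane-bound ephrins bind Eph receptor kinases on neighbouring cells. ATAC-seq marks where the Tn5 transposase can reach DNA. A peak at one of these genes says that the chromatin was open there, not that the gene was transcribed.

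The deposited intervals have no signal per library, so no spread between replicates and no test can be given, and sequencing depth was not analysed here. In bulk libraries of this kind, more cells with an open site and a more open site per cell cannot be told apart. A merged peak carries the number of library-level peaks combined into it, called subpeaks below. A peak of 3 or fewer subpeaks must lack a call in 1 or more of the 4 libraries, and a peak of at least 4 may have been called in all of them, although 1 library can give several. The authors' YSM and MDM lists hold peaks that the list names tie to DESeq2 and to 1 of the groups. A listed peak was read as more accessible in the named group. Of 12 macrophage and microglia marker genes, 9 had a peak of at least 4 subpeaks within 1000 bp of a gene end. Spi1, Cx3cr1, Itgam and Trem2 were among the 9, while Csf1r, Aif1 and P2ry12 had no such peak. One was present at 1 of 8 neuron genes, 3 of 6 astrocyte genes, 2 of 6 oligodendrocyte genes and 1 of 5 endothelial genes. The count was 0 of 5 for lymphocyte genes and 0 of 5 for neutrophil genes. Among all 21887 protein-coding genes 46.6% had such a peak, and among the members 41.0%. YSM-listed were 7 of 45 peaks at the astrocyte markers and 2 of 32 at the oligodendrocyte markers, where 1.48% of all merged peaks were. The count was 0 of 72 at the macrophage and microglia markers, 0 of 18 at the neuron markers and 0 of 33 at the endothelial markers. It was also 0 of 7 at the lymphocyte markers and 0 of 5 at the neutrophil markers. MDM-listed were 0 peaks at each of these marker sets, where 0.145% of all merged peaks were. Of the neuron genes 3 had no peak at all, and of the endothelial genes 1. The part of other cells in the peaks at guidance genes was not tested.

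The members were covered unevenly. The 9 plexins and neuropilins together held 135 peaks, the semaphorins 89, the ephrin branch 27, the netrin branch 21 and the Slit-Robo branch 15. A member had a median of 5 peaks, against 2 over all protein-coding genes and 6 over the 2429 protein-coding genes longer than 100000 bp. Of the members, 26 are that long. At least 15 peaks were found at 8 of 39 members (20.5%), against 3.80% of all protein-coding genes and 23.0% of those over 100000 bp. The share among the 26 long members was 23.1%, near that of other long genes. Among the 13 members up to 100000 bp it was 15.4% (2 genes), against 1.40% of all protein-coding genes of that length. The median of these shorter members was 6 peaks, against 1, while that of the long members was 5, against 6. No peak was assigned to 10 members (25.6%), close to the 29.7% of all protein-coding genes. By length, 34.6% of long members had none, against 19.8%, and 7.69% of shorter members, against 30.9%.

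**Figure D1:**
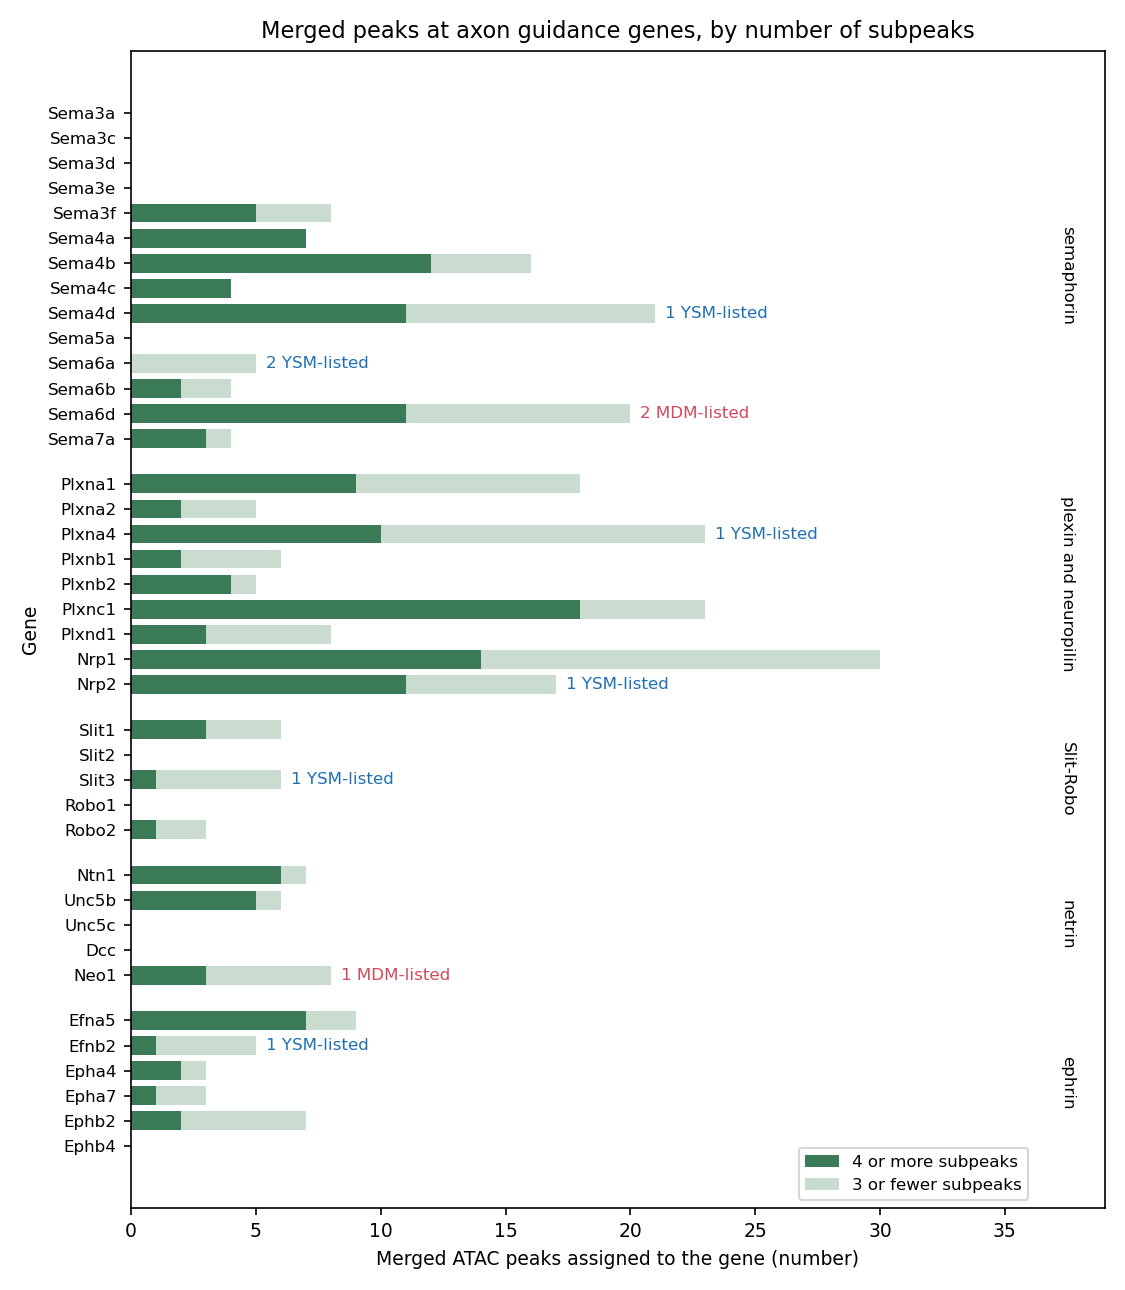
Number of merged peaks assigned to each of the 39 genes (bars, horizontal axis), split into peaks of 4 or more subpeaks (dark) and 3 or fewer (light), with listed peaks written beside the bar. The longest bars are Nrp1 with 30, Plxna4 and Plxnc1 with 23 each and Sema4d with 21, and 10 genes have none.

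Among the 287 peaks, 7 were YSM-listed (2.44%), where 1.48% of all merged peaks were, while the MDM list held 3 (1.05%), where 0.145% were. The YSM share was 1.97% at all protein-coding genes over 100000 bp and 3.22% at those over 300000 bp. Members of these lengths had 3.06% (6 peaks) and 3.85% (2 peaks). Members up to 100000 bp, with 1 such peak, had a share near that of all protein-coding genes of that length. For the MDM list all protein-coding genes over 100000 bp had 0.154% and those over 300000 bp 0.231%. Members of these lengths had 1.53% and 3.85%, and members up to 100000 bp had 0 MDM-listed peaks. The members' 1.05% rested on 3 peaks, 2 of them at Sema6d. Of the 29 members with a peak, 6 had a YSM-listed one (20.7%, against 4.27% of all protein-coding genes with a peak, 12.5% of those over 100000 bp and 21.0% of those over 300000 bp). An MDM-listed peak was present at 2 members (6.90%, against 0.539% of all protein-coding genes with a peak, 1.59% of those over 100000 bp and 2.86% of those over 300000 bp). Of the 17 members over 100000 bp with a peak, 5 had a YSM-listed one (29.4%) and 2 an MDM-listed one (11.8%). Of the 4 over 300000 bp, 2 had a YSM-listed one (50.0%) and 1 an MDM-listed one (25.0%). The YSM-listed peaks lay at Sema6a (2), Sema4d, Plxna4, Nrp2, Slit3 and Efnb2, and the MDM-listed ones at Sema6d (2) and Neo1. Each was the 1 peak of its list within 50000 bp. The 2 Sema6d peaks, centred at 124684669 and 124741035, lay slightly farther apart than this window. So did the 2 Sema6a peaks, centred at 47269393 and 47327213. Grouping over longer distances was not examined.

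Of the 10 listed peaks 6 lay inside their gene, and 1, at Efnb2, lay over an annotated start. The start distance could not be measured for the 3 at Sema6a and Plxna4. Among those measured, the Efnb2 peak was also the only one within 1000 bp of an annotated start. By this wider limit, 20.3% of all merged peaks lay near a start. Subpeak numbers differed between the lists: at most 3 were combined in 4 of the 7 from the YSM list and 0 of the 3 from the MDM list, against 71.6% of the whole YSM list and 13 of the 108 peaks of the whole MDM list. Subpeaks come from the same signal that decided the lists and add no independent evidence. Among merged peaks with at least 4 subpeaks, 3 of 160 member peaks were YSM-listed (1.88%, against 0.726% of all such peaks) and 3 were MDM-listed (1.88%, against 0.220%). For these peaks no comparison with genes of like length was made.

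**Figure D2:**
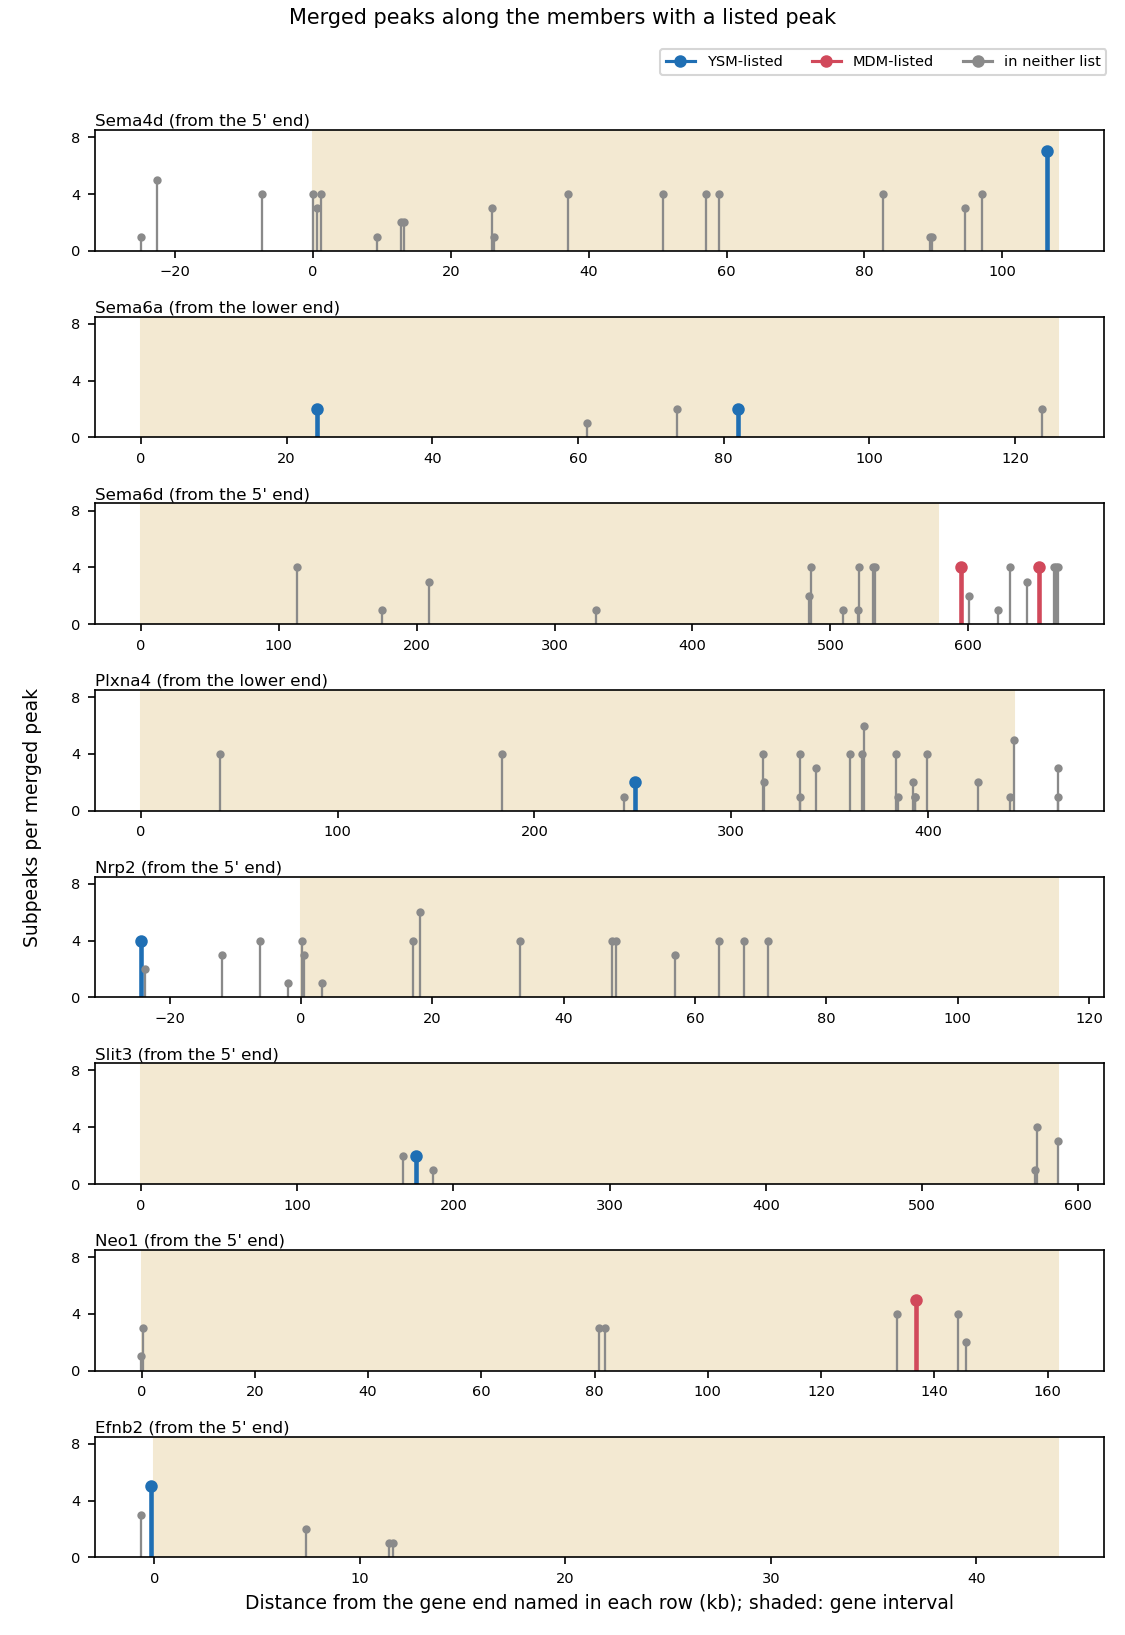
Merged peaks along the 8 members with a listed peak: the horizontal axis is the distance of the peak centre in kb from the gene end named above each row, the height is the number of subpeaks, shading is the gene interval, and blue and red mark YSM-listed and MDM-listed peaks. The Efnb2 peak stands at the 5' end, the Sema6d peaks stand past the 3' end, and the Sema4d peak stands near the 3' end.

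Of the 32 members with an annotated start in the RefSeq promoter table, 16 (50.0%) had a peak over the window from 250 bases before to 50 bases after a start, against 52.7% of the 17492 protein-coding genes in that table. The sequences below are the 250 bases before the start of 5 of them, from RefSeq on GRCm38.p6, read 5' to 3' on the gene's strand. Efnb2 is shown because its start carries the only listed peak of any member that covers an annotated start. Plxnc1 and Plxnd1 are shown as the receptors, of those searched, with PU.1 letters before the start, chosen after the matches were seen. Plxnb1, Plxnb2, Unc5b, Epha7 and Ephb2, whose start peaks also had 4 subpeaks, held 0. Plxna2 and Neo1, with start peaks of 3 subpeaks at most, held 0 too. Nrp2 was not searched, since its start peak did not reach the 250 bases before the start. Unc5b is shown for the netrin branch, and Sema4b because the peak over its inner start combined 7 subpeaks. Capitals mark matches to 8 motifs searched on both strands, of which PU.1 (GAGGAA), IRF (GAAA followed by any 2 bases and GAAA) and KLF (GGGNGGGG) occurred in these 5.
Efnb2, chr8:8661243-8661492, minus strand: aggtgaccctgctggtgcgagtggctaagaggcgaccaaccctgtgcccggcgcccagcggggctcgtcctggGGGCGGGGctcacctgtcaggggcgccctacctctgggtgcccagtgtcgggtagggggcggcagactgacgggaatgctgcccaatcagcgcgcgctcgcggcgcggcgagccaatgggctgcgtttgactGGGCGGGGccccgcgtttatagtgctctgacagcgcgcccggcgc
Plxnc1, chr10:94944846-94945095, minus strand: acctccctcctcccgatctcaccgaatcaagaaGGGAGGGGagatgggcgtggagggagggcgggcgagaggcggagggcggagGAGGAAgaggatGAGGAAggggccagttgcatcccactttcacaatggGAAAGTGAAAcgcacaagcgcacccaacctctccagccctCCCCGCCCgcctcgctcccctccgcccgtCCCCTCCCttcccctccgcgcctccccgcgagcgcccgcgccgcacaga
Plxnd1, chr6:115995006-115995255, minus strand: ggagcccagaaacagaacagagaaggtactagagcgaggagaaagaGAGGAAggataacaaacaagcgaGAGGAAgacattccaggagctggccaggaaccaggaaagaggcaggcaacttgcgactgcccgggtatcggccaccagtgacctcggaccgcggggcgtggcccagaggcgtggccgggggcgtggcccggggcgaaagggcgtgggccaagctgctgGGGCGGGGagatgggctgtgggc
Unc5b, chr10:60831582-60831831, minus strand: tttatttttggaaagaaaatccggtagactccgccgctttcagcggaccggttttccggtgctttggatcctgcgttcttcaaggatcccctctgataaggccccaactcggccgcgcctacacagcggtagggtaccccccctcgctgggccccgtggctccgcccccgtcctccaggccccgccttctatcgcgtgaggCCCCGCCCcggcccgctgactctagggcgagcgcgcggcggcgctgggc
Sema4b, chr7:80198338-80198587, plus strand: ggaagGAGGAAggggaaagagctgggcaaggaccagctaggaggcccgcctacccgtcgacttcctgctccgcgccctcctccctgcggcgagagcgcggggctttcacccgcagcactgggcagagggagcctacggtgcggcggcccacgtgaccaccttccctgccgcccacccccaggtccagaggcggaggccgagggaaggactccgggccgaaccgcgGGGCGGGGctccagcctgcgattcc

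In the Efnb2 sequence 210 of the 250 bases lay under the YSM-listed peak, 72.0% of the bases were G or C, and there were 27 CG dinucleotides. It held 2 KLF matches, which begin 177 and 45 bases before the start, the first of them under the peak. It held no match to PU.1, IRF, AP-1 (TGANTCA), RUNX (TGTGGT), MEF2 (CTA, any 4 bases, TAG), C/EBP (TTGCNNAA) or SMAD (GTCTAGAC). The Plxnc1 sequence held 2 PU.1 matches, beginning 166 and 154 bases before the start, and the only IRF match of the 17 member windows under a peak, at 118. All 3 lay under the peak, which covered 182 bases. Plxnd1 also had 2 PU.1 matches, at 204 and 181, both under its peak, while Unc5b had 1 KLF match and Sema4b 1 of PU.1 and 1 of KLF.

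Over the 17 member windows that a peak overlaps, PU.1 letters occurred in 5, KLF in 13, IRF in 1 and AP-1 in 1. RUNX, MEF2, C/EBP and SMAD letters occurred in 0. The 17 windows include 2 of Epha7 that overlap each other and 2 of Sema4b. Among all 21238 windows of the same length at protein-coding genes, PU.1 was in 22.3%, KLF in 36.7%, IRF in 2.95% and AP-1 in 6.14%. RUNX was in 12.4%, C/EBP in 9.10%, MEF2 in 3.07% and SMAD in 0.184%. Among the 9845 windows under a peak KLF was in 48.3% and PU.1 in 22.1%. KLF matches can overlap one another, as in the Sema7a window and at the outer Sema4b start, and the letters are a description, not evidence that a factor was bound.

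Among the ligands, 4 of the 5 secreted class 3 semaphorins had no peak. Sema3a, which repels growing axons, Sema3c, Sema3d and Sema3e, the ligand of Plxnd1, had 0 peaks each. The nearest merged peak was 2706230 bp from Sema3a, 2812069 bp from Sema3d, 2053026 bp from Sema3e and 86035 bp from Sema3c, where it belonged to another gene. Sema3f, a repellent that signals through Nrp2, had 8 peaks. Of the class 3 genes outside the 39, Sema3b had 2 and Sema3g 6. The Sema3f peaks comprised 5 inside the gene and 3 outside, up to 14431 bp away, and 5 of them had at least 4 subpeaks. The widest spanned 520 bp and combined 6 subpeaks, 3173 bp from the gene. Sema5a, a transmembrane semaphorin, had 0 peaks, and the nearest lay 386930 bp away.

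Class 4 semaphorins are transmembrane proteins, several of which act between immune cells, and all 4 members of this class had peaks, 48 in all. Sema4d, also called CD100, signals through Plxnb1 and Plxnb2 and is found on leukocytes. It had 21 peaks, 18 inside the gene, with 11 of at least 4 subpeaks. Its YSM-listed peak spanned chr13:51686940-51687439, at 500 bp the widest of its peaks, and combined 7 subpeaks. That peak lay inside the gene, 1660 bp from its 3' end and 52257 bp from the nearest annotated start, and the next peak of the gene was 9481 bp off. The nearest other protein-coding gene, Secisbp2, was 3145 bp from it. At the 5' end of the gene stood 3 peaks of 3 or 4 subpeaks, at chr13:51792429-51792674, chr13:51792882-51793233 and chr13:51793553-51793786, and none was listed. The Sema4d start that matched a peak was an inner one, at 51756683.

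Sema4b had 16 peaks over a gene of 39.8 kb, 9 inside and 7 upstream, of which 12 had at least 4 subpeaks. Both its annotated starts lay under a peak, the outer one under a peak of 4 subpeaks and the inner one, at 80198588, under one of 7. In no 20000 bp did any member have more peaks than Sema4b, with 7. Sema4a, which acts on T cells, had 7 peaks and every one of them had at least 4 subpeaks. The largest of these combined 7 subpeaks and lay 6192 bp upstream of the gene, at chr3:88467212-88467537. Sema4c had 4 peaks within a gene of 12.1 kb, all of exactly 4 subpeaks and all within 731 bp of an annotated start. Per length this was the densest member, with 33.2 peaks inside the gene per 100 kb. None of the peaks at Sema4a, Sema4b and Sema4c was in either list.

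The class 6 semaphorins, transmembrane ligands of the class A plexins, held both kinds of listed peak. Sema6a had 5 peaks, all inside the gene and all of 1 or 2 subpeaks, so each lacked a call in at least 2 libraries. Its YSM-listed peaks were chr18:47269284-47269502 and chr18:47327101-47327326, of 219 and 226 bp, with 2 subpeaks each. No other member with a peak lacked any peak of 4 or more subpeaks. Sema6d, a ligand of Plxna1, had 20 peaks: 11 inside the gene and 9 past its 3' end. The MDM-listed peaks were both among the 9, at chr2:124684484-124684854 and chr2:124740900-124741170, each of 4 subpeaks. They lay 16880 and 73246 bp past the 3' end and 31088 and 87454 bp downstream of the inner annotated start at 124653581. The next protein-coding gene, Slc24a5, was 383458 bp from the first and 327092 bp from the second, so no other protein-coding gene was close. The second lay inside the non-coding RNA gene Gm39920. The other 7 peaks past the 3' end had 1 to 4 subpeaks and were in neither list, and 0 peaks lay over either Sema6d start. Sema6b had 4 peaks, 1 over a start.

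Sema7a, a semaphorin anchored to the membrane by a lipid, had 4 peaks. The peak over its start had 4 subpeaks, and the peak upstream, 3556 bp from the gene, had 5. None was listed. Over the 14 semaphorins, 3 of 89 peaks were YSM-listed (3.37%, against 1.48% of all merged peaks) and 2 MDM-listed (2.25%, against 0.145%), from 3 genes.

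The receptors of semaphorins held the most peaks of the 5 branches, and all 9 had some. Nrp1, a co-receptor for class 3 semaphorins and vascular endothelial growth factor, had the most of any member, 30. Of these 15 were inside the gene, 12 upstream and 3 downstream, with 14 of at least 4 subpeaks and none listed. At its 5' end the nearest peaks were 4 between chr8:128357250-128357495 and chr8:128358513-128358738, with 4, 1, 4 and 2 subpeaks. Upstream peaks reached 91969 bp from the gene, where 3 lay close together, at chr8:128266477-128266768, chr8:128267941-128268298 and chr8:128268734-128269039. Nrp2, the paralogue that binds Sema3f, had 17 peaks, 12 inside and 5 upstream. Its YSM-listed peak, chr1:62678844-62679067, had 4 subpeaks and lay 24362 bp upstream of the start. A further peak of 2 subpeaks stood 605 bp from it and was not listed. The Nrp2 start itself had an unlisted peak of 4 subpeaks.

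Plxnc1, the receptor of Sema7a, had 23 peaks, 18 inside a gene of 154.2 kb and 5 upstream. At least 4 subpeaks were combined in 18 of the 23, more than at any other member. The inside peaks formed 2 groups. One ran from the start to 35309 bp downstream and the other from 85903 to 116628 bp, with 0 peaks between. The 5 upstream peaks lay up to 47178 bp from the gene, of which 1 combined 6 subpeaks. None of the 23 was listed. Plxna4, a class A plexin that pairs with neuropilins, also had 23 peaks, but 13 of them had at most 3 subpeaks. Its YSM-listed peak, chr6:32395421-32395623, had 2 subpeaks and a width of 203 bp, and lay 192670 bp from the nearer gene end, with 1 other merged peak within 50000 bp. Plxna4 is 443.6 kb long, and 16 of its 20 inside peaks lay beyond the YSM-listed one towards the higher coordinate, where a peak of 5 subpeaks also lay over the gene's end.

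Plxna1, the receptor of Sema6d, had 18 peaks, 4 inside the gene and 14 outside, up to 80759 bp away. Of the 4, 3 also lay inside another protein-coding gene and may belong to that one. The widest peak of any member, chr6:89362122-89362893, was at its higher end, with 772 bp and 7 subpeaks. Plxna2 had 5 peaks, and 1 of them, chr1:194775674-194776169, combined 8 subpeaks, the highest number among the members. It lay 156092 bp downstream of the start, while both peaks over the Plxna2 start had at most 3 subpeaks. Plxnb2, a receptor of class 4 semaphorins, had 5 peaks, 4 of them of 4 subpeaks. Plxnb1 had 6 and Plxnd1 8, with a start peak of 4 subpeaks at each. Over the 7 plexins 1 of 88 peaks was YSM-listed (1.14%, against 1.48% of all merged peaks), and 0 were MDM-listed.

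**Figure D3:**
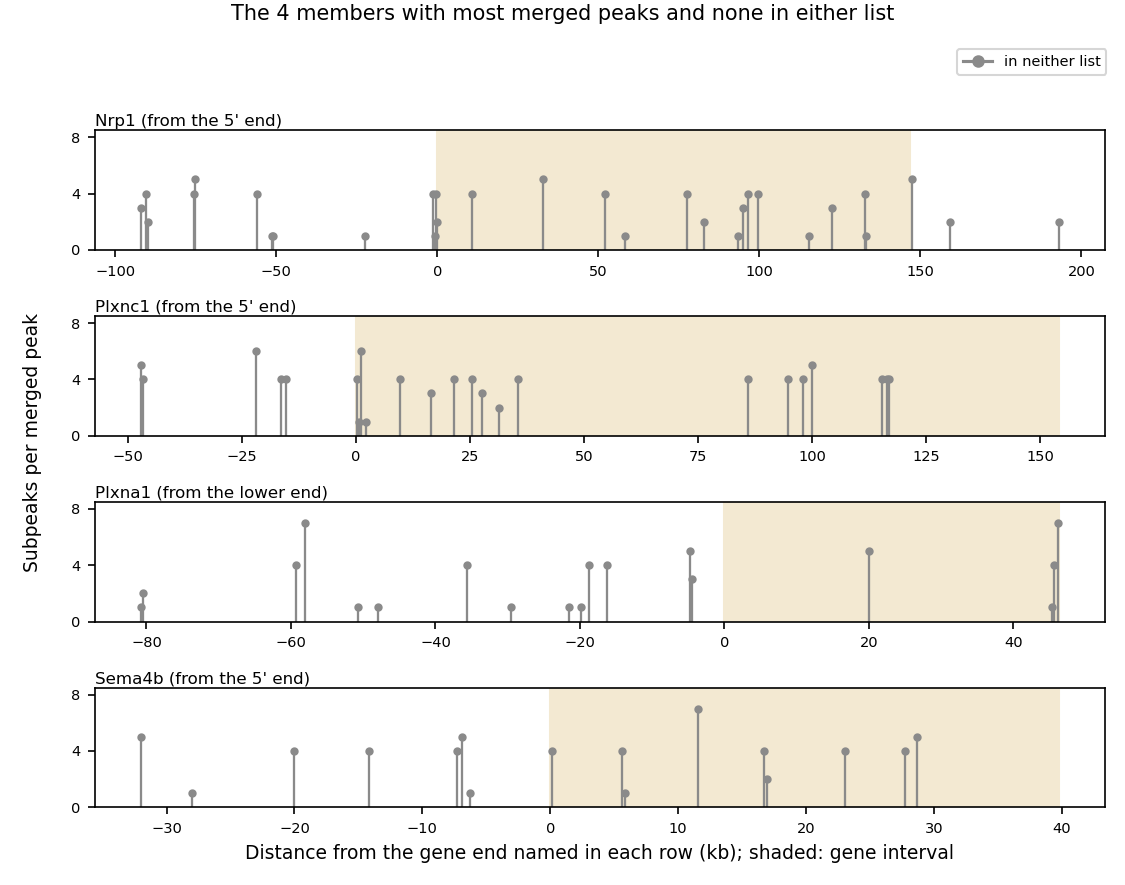
Merged peaks along Nrp1, Plxnc1, Plxna1 and Sema4b, the members with most peaks among those without a listed one, drawn by distance in kb (horizontal) and number of subpeaks (vertical), with the gene interval shaded. Peaks of Plxnc1 stand in 2 groups inside the gene, and most Plxna1 peaks stand outside it.

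The Slit-Robo branch held 15 peaks, at 3 of its 5 genes. Slit proteins are secreted repellents and Robo proteins their receptors. Slit2 and Robo1 had 0 peaks, with the nearest 64611 and 426213 bp away, and Robo1 spans 1020.0 kb. Robo2, the longest member at 1555.5 kb, had 3 peaks, 2 of them inside, which is 0.129 per 100 kb. Slit1 had 6 peaks, 3 of them of 4 subpeaks, and the median of all protein-coding genes over 100000 bp was also 6. Slit3 had 6, of which 1 had 4 subpeaks, and the median of genes over 300000 bp was 4. The YSM-listed Slit3 peak, chr11:35297409-35297766, was 358 bp wide, had 2 subpeaks and lay 176131 bp downstream of the start. It stood between unlisted peaks of 2 and 1 subpeaks, the nearer 8624 bp away, and 0 peaks lay over the Slit3 start. Of the 15 peaks in this branch 10 had at most 3 subpeaks (66.7%), against 42.3% of all merged peaks. The share was 47.6% at all protein-coding genes over 100000 bp and 50.8% at those over 300000 bp.

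In the netrin branch Dcc, the attractive netrin receptor, and Unc5c, a repulsive one, had 0 peaks, with the nearest 563940 and 408445 bp away. Neo1 encodes neogenin, a receptor for netrins and repulsive guidance molecules related to Dcc, and had 8 peaks. Its MDM-listed peak, chr9:58899557-58900009, was 453 bp wide, the widest at the gene, and its 5 subpeaks were the most there. It lay inside the gene, 136658 bp downstream of the start and 25104 bp from the other end, with an unlisted peak of 4 subpeaks 3410 bp away. The start had peaks of 3 and 1 subpeaks. Ntn1, which encodes netrin-1, had 7 peaks, 6 of them of at least 4 subpeaks. Only 1 centre was inside the gene, at its higher end, and the others lay up to 21376 bp beyond it. Unc5b, a netrin receptor of vessels, had 6 peaks. Its start peak had 4 subpeaks, and a peak of 7 subpeaks, chr10:60807800-60808281, lay 23541 bp downstream.

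Among the ephrins, Efnb2, the membrane-bound ligand of Ephb4 that marks arterial endothelium, had 5 peaks. The YSM-listed one, chr8:8661283-8661524, was 242 bp wide, combined 5 subpeaks and had its centre 161 bp upstream of the start. It was the only Efnb2 peak with more than 3 subpeaks. An unlisted peak of 3 subpeaks lay 501 bp further upstream, and 3 peaks of 1 or 2 subpeaks lay inside the gene. The next protein-coding gene, Arglu1, was 4894 bp from the listed peak. Ephb4 had 0 peaks, and the nearest merged peak was 11563 bp away at another gene.

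Efna5, a lipid-anchored ephrin, had 9 peaks, the most of its branch. The peaks nearest its start lay 1766 and 2863 bp upstream, and 7 of the 9 had 4 subpeaks. Epha4 had 3 peaks, 0 of them inside the gene, and 1 that combined 7 subpeaks lay 86426 bp past its 3' end. Epha7 had 3 and Ephb2 had 7. At Ephb2 the start had a peak of 4 subpeaks, 3299 bp downstream stood a peak of 7, and the other 4 peaks inside the gene were single calls. None of the peaks at these 4 genes was listed.

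**Figure D4:**
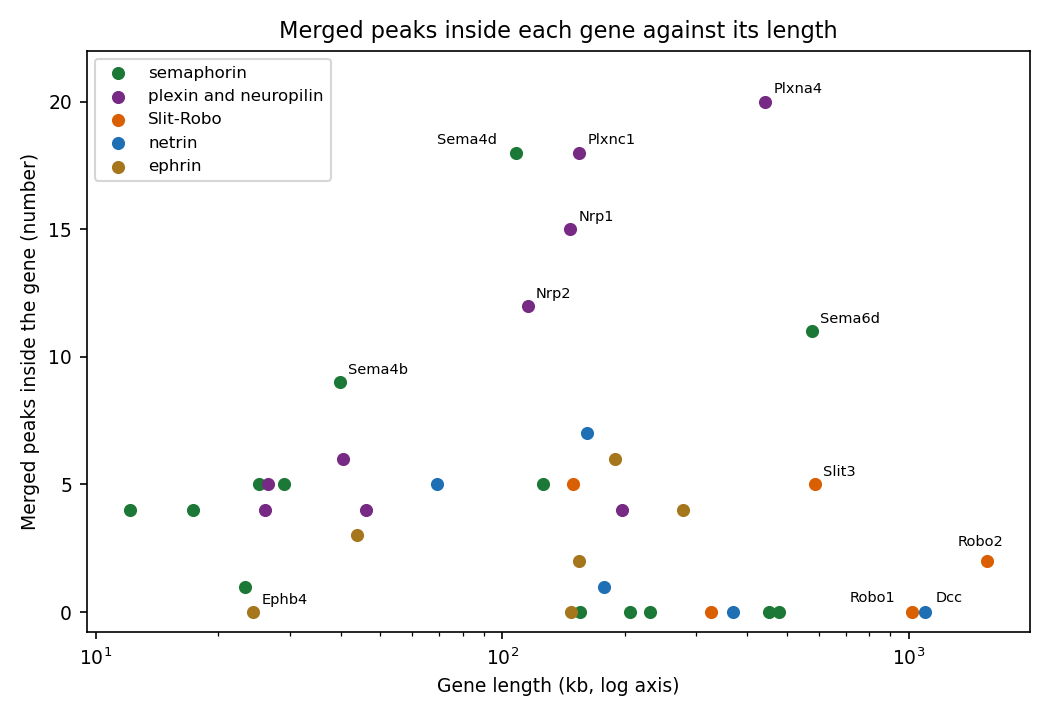
Merged peaks with their centre inside each of the 39 genes (vertical axis, number) against gene length (horizontal axis, kb, logarithmic), coloured by branch. Plxna4, with 20, Plxnc1 and Sema4d, with 18 each, lie above longer genes such as Robo2, with 2, and Robo1 and Dcc, with 0.

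The members' peaks resembled all merged peaks in subpeak number. At most 3 subpeaks were combined in 44.3% of member peaks and 42.3% of all, exactly 4 in 43.9% and 46.4%, and 7 or more in 3.14% and 2.48%. The median was 4 in both, and the median width was 239 bp against 236 bp. Peaks assigned to any protein-coding gene are the comparison for position. Member peaks lay less often within 1000 bp of an end of the assigned gene, at 11.5% against 22.2%. More often they lay inside a gene, at 66.2% against 62.9%. Against peaks of all protein-coding genes over 100000 bp both directions turned, with a gene-edge share of 8.96% and an inside share of 80.0%. Members over 100000 bp had 11.2% and 68.9%. Of the 220 peaks at members with an annotated start, 69 lay within 10000 bp of one, and the median distance was 28266 bp.

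**Figure D5:**
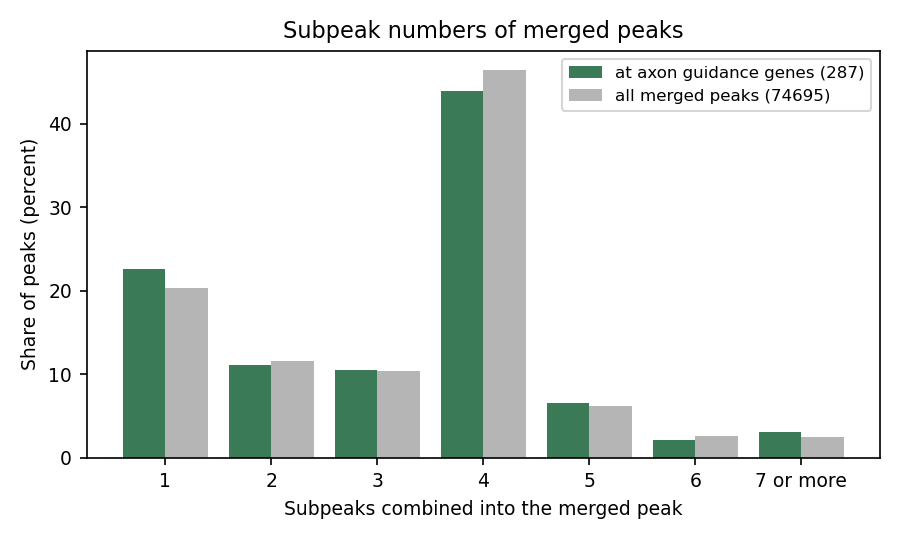
Share of merged peaks (vertical axis, percent) by the number of subpeaks combined (horizontal axis), for the 287 peaks at the members and for all 74695. Both have their highest bar at 4, with 43.9% and 46.4%.

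The other genes of the pathway held listed sites at shares near or below those of all merged peaks, which were 1.48% for the YSM list and 0.145% for the MDM list, except for 1 MDM-listed peak. A set of 36 further genes held semaphorin, plexin, Robo, netrin, Unc5, ephrin and Eph genes, with Draxin, Rgma and Rgmb. Of the 36, 27 had peaks, 132 in all. The YSM list held 1 of these (0.758%) and the MDM list 0. The listed peak, chr16:21204499-21204711, had 4 subpeaks and lay 15 bp outside Ephb3, an Eph receptor that binds the same class of ephrins as Ephb4. Of 53 genes that act inside the cell in guidance signalling, 50 had peaks, 451 in all, with 6 YSM-listed (1.33%) and 1 MDM-listed (0.222%). Ablim1, an actin-binding protein, held 4 of the 6, all inside the gene, with 2, 5, 3 and 4 subpeaks. Dpysl5, a collapsin response mediator, and Abl2, a kinase that remodels the cytoskeleton, held 1 each, both of 2 subpeaks. The MDM-listed one was inside Vav3 and had 4 subpeaks. Of 13 further receptors and partners of semaphorins, such as Cd72, Itgb1 and Trem2, 12 had peaks, and 0 of their 82 peaks were in either list. None of these differences between lists of genes was tested.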

How the data were processed

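ATAC-seq was made from sorted mouse brain parenchymal macrophages in 4 libraries, per the labels' protocols. Per the submitters' processing notes, the tools were HOMER, Picard, Bowtie2 2.2.5 and Trimmomatic 0.39, and the build was mm10. Peaks of the 4 libraries were combined with HOMER mergePeaks, per the file headers. No source used here gives the peak-calling settings, the Tn5 shift or the thresholds of the 2 lists. The deposited score field was 1 in every merged peak and was not used. Depth per library was not analysed here, and a shallower library would give fewer subpeaks.

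Subpeak numbers were read from the end of each peak's name: all 15127 intervals with 1 subpeak were 201 bp wide, and 0 were wider than subpeaks times 201 bp. Each of the 1104 YSM-listed and 108 MDM-listed intervals matched a merged peak. Genes and starts came from RefSeq (GRCm38.p6, whose chromosomes are those of mm10), with Python 3.11.15. An annotated start was within 1000 bp for 20.3% of merged peaks, and for 3.07% after a shift of 1000000 bp. A peak inside several genes counted for each, which touched 3 member peaks, all at Plxna1. Strand was known for the 32 members in the start table, and exons were not used. The assignment was checked on simulated peaks.

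Named with values were members with a listed peak, the members with most and fewest peaks per branch, those without a peak, and the peaks with most subpeaks. Other details were chosen after their values were seen. The members and lists were chosen with earlier results of these data known. No test was made. The main counts and shares were recomputed under up to 9 alternatives.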

Additional observations from a re-analysis of the deposited data

How the results depend on the processing

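Over 6 results and 9 alternatives, 50 values were computed, of which 44 stayed within 1.5 times the first count or, for shares, within the 95% exact binomial interval of the first share. With peaks of at least 4 subpeaks alone, YSM-listed peaks at the members numbered 3 in place of 7, at 3 genes in place of 6, and merged peaks 160 in place of 287. With peaks inside the gene alone, merged peaks numbered 190 and MDM-listed peaks 1 in place of 3, since both Sema6d peaks lie outside it. The share with at most 3 subpeaks was 27.9% once single calls were left out, which follows from that filter. With genes of every annotated kind, the Nrp2 and the farther Sema6d listed peaks went to Gm11599 and Gm39920. Peaks within 1000 bp counted once left 223 in place of 287. No paired analysis was possible because the deposited lists hold no values per library, and for the same reason no replicate could be left out.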

Other observations

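Members without a peak often lay in long stretches without any merged peak, which was picked out only once the lengths were known. A gene free of peaks must lie in a stretch at least as long as itself, and Dcc spans 1097.6 kb and Robo1 1020.0 kb. No stretch lengths are given for other protein-coding genes without a peak, so whether the members differ from them was not tested. Sema3a, Sema3d and Sema3e share 1 stretch without a merged peak on chromosome 5, from 9571193 to 16309598, of 6.74 Mb. By length it ranked 7 among the stretches between neighbouring merged peaks outside chromosome Y. Unc5c lay in a stretch of 3.04 Mb, Dcc in one of 2.81 Mb, Robo1 in one of 2.66 Mb, Slit2 in one of 2.45 Mb and Sema5a in one of 1.43 Mb. Sema3c, with 0.426 Mb, and Ephb4, with 0.164 Mb, lay in shorter ones. Epha4, whose 3 peaks are outside the gene, lay in a stretch of 0.235 Mb.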
